A study of Mus musculus with 16 samples.

Results

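A set of 10 genes, of 55357 in the deposited table, that are known for their response to nerve injury were followed in lumbosacral dorsal root ganglia of mice whose bladders had received VEGFA or saline. They were taken by their symbols, Sprr1a, Atf3, Sox11, Jun, Ecel1, Gadd45a, Csf1, Stmn4, Tnfrsf12a and Cckbr, because some of them stood high in 2 libraries of VEGFA males. All mice were wild type and of the strain C57BL6/J, and each library came from 1 animal; ages were not given. Each animal received 100 µL of saline into the bladder on days 1, 5 and 9, and in the VEGFA groups this saline held 6.41 nM VEGF165. The L1, L2, L6, S1 and S2 ganglia of each animal were collected together on day 16 for poly(A) RNA sequencing. Males and females given saline or VEGFA made 4 groups of 4 libraries, and each group had 2 libraries in batch 1 (numbers 1 to 4) and 2 in batch 2 (numbers 5 to 8). The model is limited to bulk tissue, in which more cells of a type and more RNA per cell cannot be told apart.

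Sensory neurons of a dorsal root ganglion send one branch to the periphery, here including the bladder, and one to the spinal cord. When the peripheral branch is cut or crushed, the neuron switches on a set of genes for survival and regrowth. Transcription factors such as ATF3, c-Jun and SOX11 lead this response, and proteins of the growing axon, secreted signals and receptors follow. The same neurons lower many of their ion channels, receptors and neurofilaments.

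Of the 10 genes, 7 lay higher in both VEGFA male 5 and VEGFA male 6, which are of batch 2, than in each of the other 14 libraries. Sprr1a showed the widest gap, followed by Atf3, Sox11, Ecel1 and Cckbr, while Jun and Csf1 stood only just outside the range of the others. Gadd45a, Stmn4 and Tnfrsf12a overlapped the other libraries. The same held for 1606 of the 18283 genes tested, a background of 8.78%, and 888 genes (4.86%) lay below all others in both libraries. Of the 7 genes, 5 also exceeded the median of the other 14 libraries more than 2-fold in their mean of log2(CPM + 0.5), as did 304 of all genes (1.66%). These 2 libraries were the reason for the choice of genes, so their values are a description and carry no test. The other 2 VEGFA males, of batch 1, lay within the range of the remaining groups for each of the 10 genes except Csf1 in VEGFA male 1, the lowest library for that gene at 14.3 counts per mega reads (CPM).

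The stretch of 250 bases before the start of transcription was available from RefSeq (build GRCm38.p6) for 9 of the 10 genes; for Stmn4 it was not used here. The stretches of Sprr1a and Atf3 are shown because they were the only ones of the 9 that held any of 3 motifs for factors of the AP-1 and ATF families, which count c-Jun and ATF3 among their members. That of Sprr1a, chr3:92485882-92486131 on the minus strand, held 2 matches to the AP-1 motif TGANTCA, beginning 146 and 116 bases before the start and printed in capitals. That of Atf3, chr1:191183334-191183583 on the minus strand, held 1 match to the C/EBP-ATF motif TGATGNAA, read on the opposite strand, beginning 110 bases before the start and also in capitals.
Sprr1a: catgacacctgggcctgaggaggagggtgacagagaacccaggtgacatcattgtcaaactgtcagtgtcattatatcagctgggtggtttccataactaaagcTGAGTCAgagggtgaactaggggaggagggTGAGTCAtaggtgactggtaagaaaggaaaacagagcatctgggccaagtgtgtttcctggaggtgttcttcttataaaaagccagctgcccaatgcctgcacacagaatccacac
Atf3: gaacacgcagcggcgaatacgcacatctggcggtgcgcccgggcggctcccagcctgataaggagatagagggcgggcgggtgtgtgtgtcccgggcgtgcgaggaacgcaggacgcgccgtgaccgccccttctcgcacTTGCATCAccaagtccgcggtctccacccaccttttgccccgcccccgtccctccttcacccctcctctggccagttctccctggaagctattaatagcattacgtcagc

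Searched on both strands in all 32851 RefSeq promoters of 27025 genes, the AP-1 motif was present in 6.75% and the C/EBP-ATF motif in 3.45%. The cyclic AMP response element TGACGTCA was in 1.55% of all promoters and in 0 of the 9. The 3 motifs do not contain one another. A match describes the letters of this window and no more, and binding was not measured.

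Among the transcription factors, Atf3 (chromosome 1, 190902493 to 190950236, build mm39) codes for a stress-induced factor of the ATF family that is nearly silent in uninjured sensory neurons. In VEGFA males it was at 9.61 and 7.12 CPM in batch 1 and at 65.2 and 53.3 CPM in batch 2. In saline males it was at 8.12 and 11.1 CPM in batch 1 and at 11.1 and 17.6 CPM in batch 2. All 8 females lay between 6.99 and 11.2 CPM. VEGFA male 5 and 6 thus stood apart, and the lower of them was 3.03 times the highest other library, Saline male 8. Their mean was 6.19 times the median of the other 14 libraries.

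Sox11 (chromosome 12, 27384263 to 27392573) codes for a factor of the SoxC group that promotes neurite growth in the embryo and after injury. Its levels were 24.7 CPM in VEGFA male 5 and 27.5 CPM in VEGFA male 6, against 8.23 and 8.13 CPM in the VEGFA males of batch 1. Saline males had 6.08, 7.84, 9.69 and 8.92 CPM. Saline females lay between 9.09 and 10.5 CPM and VEGFA females between 6.04 and 9.52 CPM. The other 14 libraries therefore spanned a narrow range, and the lower of the pair was 2.35 times the highest of them. The related genes Sox4 and Sox12 did not follow, with 26.8 and 30.8 CPM of Sox4 in the pair, inside the range of 15.8 to 39.7 CPM of the others.

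Jun (chromosome 4, 94937271 to 94940459) codes for c-Jun, a subunit of AP-1. It was at 152 and 178 CPM in VEGFA male 5 and 6 and at 115 and 134 CPM in the other VEGFA males. Saline males had 109, 104, 115 and 125 CPM, and saline females 120, 142, 117 and 130 CPM. VEGFA females were the lowest group with 99.1, 113.02, 101 and 104 CPM. The pair lay above all others, but the lower of them was only 1.07 times the highest other library, Saline female 4.

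Most other subunits and partners of these factors overlapped the other libraries. Over all genes tested, 8.78% lay above the other 14 libraries in both and 4.86% below. Of 15 tested genes for AP-1 and ATF partners, 2 lay above the other 14 libraries in both and 1 lay below. The 2 above, named after their values had been seen, were Atf2 (38.0 and 43.4 CPM, others up to 35.9) and Cebpg (38.3 and 37.7 CPM, others up to 35.1), by margins like that of Jun. The 1 below was Jund (84.8 and 79.4 CPM against 85.0 to 189 CPM). None of 11 immediate early genes, which respond within minutes to hours of stimulation, lay outside the others on either side. Nr4a1, the most abundant of them, was at 64.6 and 49.2 CPM within a range of 41.9 to 101 CPM. None of 9 tested genes of the integrated stress response lay outside either, and of 10 p53 targets only Zmat3 did, above. Beside the shares over all genes, such small counts in short lists are not read as a result about these genes.

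**Figure D1:**
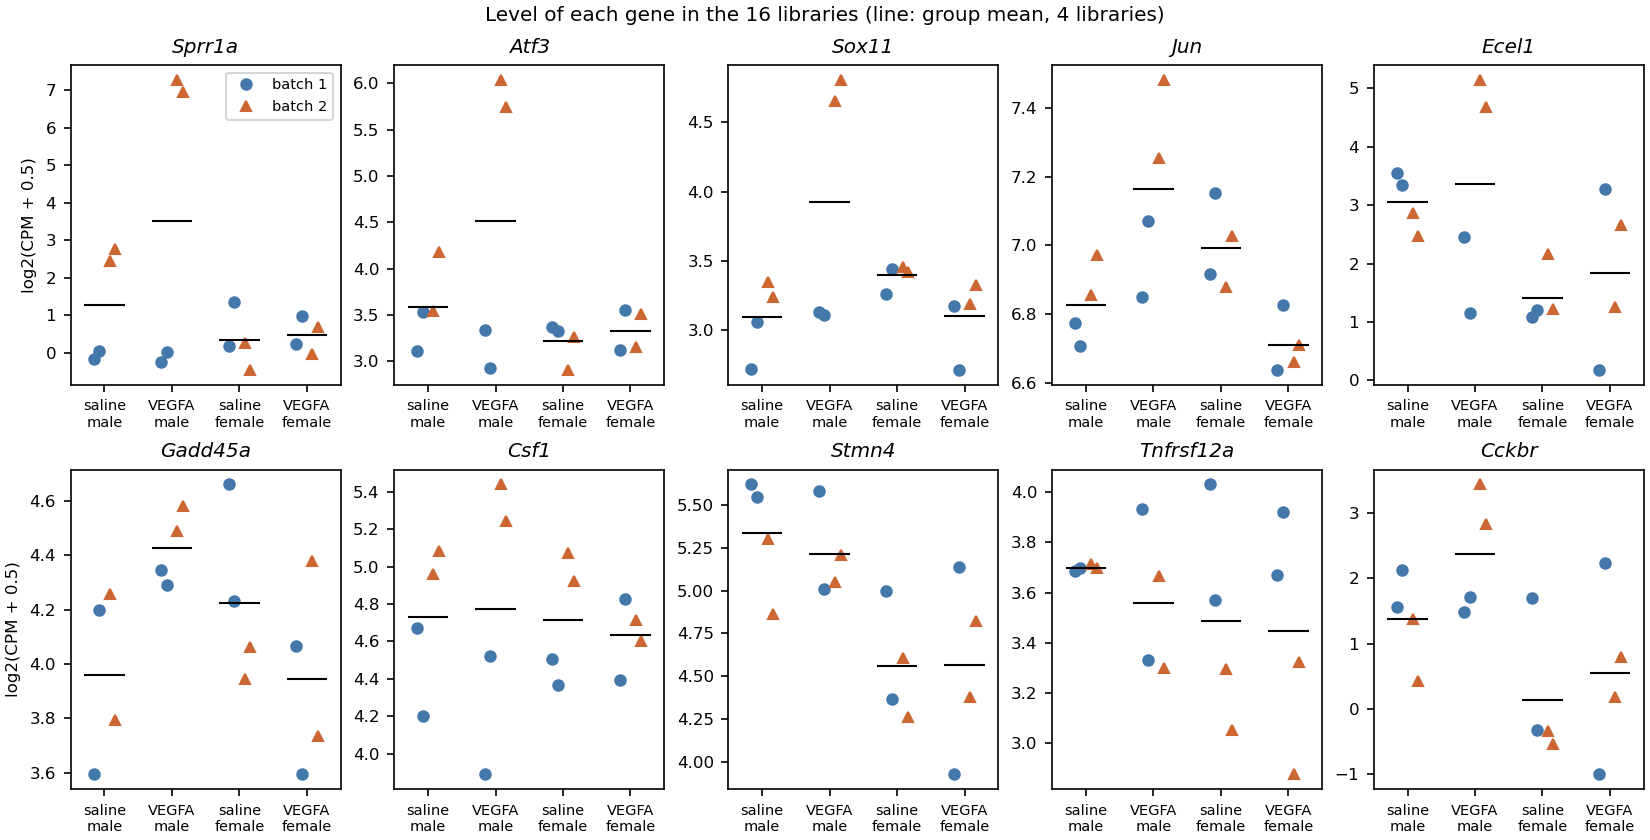
Level of each of the 10 genes as log2(CPM + 0.5) in the 16 libraries, with circles for batch 1, triangles for batch 2 and a line for the mean of the 4 libraries of a group; each panel has its own vertical scale. For Sprr1a, Atf3, Sox11, Ecel1 and Cckbr the 2 triangles of the VEGFA males stand clear of all other points, while Gadd45a, Stmn4 and Tnfrsf12a overlap.

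Among the proteins of the growing axon, Sprr1a (chromosome 3, 92391259 to 92393202) codes for a small proline-rich protein of the cornified skin envelope that injured sensory neurons also make. It was at 155 CPM in VEGFA male 5 and 124 CPM in VEGFA male 6, from 6390 and 4383 reads. The VEGFA males of batch 1 had 0.34 and 0.52 CPM, from 9 and 15 reads. No other group came near the pair, whose lower value was 19.6 times the highest other library.

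Saline males came closest, and within them the batches separated. They had 0.40 and 0.53 CPM of Sprr1a in batch 1 and 4.92 and 6.33 CPM in batch 2, from 169 and 208 reads. Saline females had 0.62, 2.04, 0.70 and 0.22 CPM and VEGFA females 0.66, 1.47, 0.48 and 1.10 CPM. All 4 males of batch 2 thus lay above all 12 other libraries, the highest of which was Saline female 4. In each sex and treatment the groups hold 2 animals per batch, so this order of the saline males was not tested. Such orders were not counted over all genes.

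The other small proline-rich genes were at or near 0. Sprr2d and Sprr3 were at 0 CPM in all 16 libraries, Sprr1b was at 0.24 and 0.057 CPM in VEGFA male 5 and 6 and at 0 in the rest, and Sprr2h was at 0 in the pair. The 6 keratinocyte markers summed to 6.02 and 6.48 CPM in the pair and to 4.79 to 12.9 CPM in the other 14. Krt10, the most abundant of them, was at 3.06 and 2.16 CPM against a median of 2.67 CPM.

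Stmn4 (chromosome 14, 66581745 to 66599129) codes for a neuronal stathmin, a protein that binds tubulin. It was at 32.7 and 36.5 CPM in VEGFA male 5 and 6 and at 47.3 and 31.6 CPM in the other VEGFA males. Saline males had 48.7, 46.2, 38.9 and 28.7 CPM. Saline females, with 31.4, 20.2, 23.8 and 18.7 CPM, and VEGFA females, with 14.7, 34.7, 20.3 and 27.8 CPM, were mostly lower. The pair lay inside the range of the males, and the other 3 stathmin genes overlapped the other libraries as well.

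Among the secreted signals and receptors, Csf1 (chromosome 3, 107648364 to 107667785) codes for the growth factor of macrophages and microglia. It was at 43.0 and 37.5 CPM in VEGFA male 5 and 6, just above the other 14 libraries, which ran from 14.3 to 33.4 CPM. In the saline animals of both sexes it lay between 17.9 and 25.02 CPM in batch 1 and between 29.8 and 33.4 CPM in batch 2. The batches of the saline animals did not overlap. This order was not tested, and such orders were not counted over all genes. Csf1r, which codes for its receptor, was at 36.5 and 34.9 CPM in the pair, within 33.9 to 65.0 CPM of the others.

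Cckbr (chromosome 7, 105074938 to 105120105) codes for a receptor of cholecystokinin and gastrin that rises in sensory neurons after axotomy. It was at 10.4 and 6.64 CPM in VEGFA male 5 and 6 and at 2.31 and 2.80 CPM in the other VEGFA males. Saline males had 2.44, 3.88, 2.10 and 0.85 CPM, and saline females 2.76, 0.30, 0.30 and 0.19 CPM. VEGFA females ranged widely, with 0 (0 reads, which allows up to 0.105 CPM by counting error alone), 4.21, 0.64 and 1.24 CPM. The lower of the pair was 1.58 times the highest other library, VEGFA female 2. Of its ligands, Cck was at 0.534 and 0.11 CPM in the pair, against a median of 2.47 CPM in the others. For Cck, VEGFA male 5 lay inside the range of the others, 0.525 to 13.8 CPM. Gast was at 0 in both, and its median over the others was 0 as well.

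Tnfrsf12a (chromosome 17, 23894419 to 23896442) codes for the receptor of the cytokine TWEAK. It showed no gap, with 12.2 and 9.33 CPM in VEGFA male 5 and 6 within a range of 6.84 to 15.9 CPM. The 4 saline males lay closest together, between 12.4 and 12.6 CPM. Of the 5 tested genes for ligands and receptors linked to the 10 genes, 0 stood outside the other libraries in the pair. Over all genes tested, 8.78% lay above and 4.86% below.

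Among the remaining genes, Ecel1 (chromosome 1, 87075377 to 87084243) codes for a neuronal endopeptidase that is induced by nerve damage. It was at 34.8 and 25.1 CPM in VEGFA male 5 and 6 but at 4.99 and 1.73 CPM in the VEGFA males of batch 1. Saline males had 11.1, 9.61, 6.81 and 5.03 CPM. Saline females had 1.63, 1.80, 3.96 and 1.83 CPM. VEGFA females spread over 0.63, 9.18, 1.89 and 5.82 CPM. The lower of the pair was 2.25 times the highest other library, Saline male 3.

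Gadd45a (chromosome 6, 67012080 to 67014441) codes for a protein of the growth arrest and DNA damage response. It was at 21.97 and 23.4 CPM in VEGFA male 5 and 6, below Saline female 3 at 24.8 CPM. The VEGFA males as a group lay between 19.1 and 23.4 CPM and the saline males between 11.6 and 18.6 CPM. This order was not tested, as it holds the pair, and such orders were not counted over all genes. The other 2 genes of its family, Gadd45b and Gadd45g, overlapped the other libraries.

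Per kilobase of exon (lengths from GENCODE M21), the order of the genes in the other 14 libraries differed from that in the pair. By the median of the 14, Jun was the highest with 36.1 CPM per kb, followed by Stmn4 (15.7), Gadd45a (9.68), Tnfrsf12a (6.36), Csf1 (4.62) and Atf3 (4.45). Ecel1 (1.28), Sox11 (1.06), Sprr1a (0.798) and Cckbr (0.583) were the lowest. The ranges over libraries of neighbours in this order overlapped, except at 2 places. Jun, at 31.1 to 44.4 CPM per kb, lay above Stmn4, at 7.69 to 25.4, and Atf3, at 3.24 to 8.16, lay above Ecel1, at 0.18 to 3.18. In VEGFA male 5 and 6, Sprr1a was first with 192 and 154 CPM per kb, ahead of Jun with 47.7 and 55.9 and Atf3 with 30.3 and 24.7.

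The male groups are also given as differences, with no test because the genes were chosen on them. Differences are on the scale of log2(CPM + 0.5), which understates the change of genes with low levels. The VEGFA minus saline difference in males was 2.23 (SE 1.13) for Sprr1a, 0.92 (SE 0.45) for Atf3 and 0.83 (SE 0.262) for Sox11. Without VEGFA male 5 it was 1.25 for Sprr1a, 0.51 for Atf3 and 0.68 for Sox11, and without VEGFA male 6 it was 1.37, 0.61 and 0.62. By DESeq2 on the recovered reads that of Sprr1a was 4.24. By batch it was -0.06 in batch 1 and 4.52 in batch 2 for Sprr1a, -0.19 and 2.04 for Atf3 and 0.23 and 1.44 for Sox11. Cckbr had -0.24 and 2.23 and Ecel1 -1.63 and 2.24, so that for 4 of these 5 genes the sign differed between the batches. Gadd45a had nearly the same difference in both batches, 0.42 and 0.51, and Jun had 0.22 and 0.46. Across all genes, the male comparison called 0 genes by limma (0%), with 1007 (5.51%) at an unadjusted p under 0.05; edgeR called 0 and DESeq2 1.

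Whether the genes differed between VEGFA and saline was tested in females, a contrast that holds neither VEGFA male 5 nor VEGFA male 6. By limma no gene passed among all those tested (0%), and so 0 of the 10 genes did; edgeR also called 0 genes and DESeq2 1. At an unadjusted p under 0.05 were 1735 genes (9.49%), 1 of them among the 10. This was Jun, with means of 127 CPM (SD 11.03, n = 4) in saline and 104 CPM (SD 6.20, n = 4) in VEGFA females. All 4 VEGFA females lay below all 4 saline females, and the share of all genes with such an order was not counted. By limma the log2 difference was -0.28 (SE 0.124, 95% interval -0.55 to -0.02), with an adjusted p of 0.509 and with -0.30 in batch 1 and -0.27 in batch 2. Over the alternative analyses the adjusted p of Jun ran from 0.356 to 0.999.

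For the genes with the widest gap in males, the female intervals were wide. Sprr1a had means of 0.897 CPM (SD 0.792, n = 4) in saline and 0.929 CPM (SD 0.446, n = 4) in VEGFA females. Its log2 difference was 0.14, with a 95% interval from -2.25 to 2.52, set by the spread that all 4 groups share, the VEGFA males included. In the same fit over all 16 libraries it was 0.12 (-0.83 to 1.06) for Atf3, -0.30 (-0.85 to 0.26) for Sox11, 0.42 (-1.04 to 1.88) for Ecel1 and 0.42 (-0.94 to 1.78) for Cckbr. All 5 intervals include 0. Fitted without VEGFA male 5 and 6, the SE was 0.585 for Sprr1a, 0.233 for Atf3 and 0.185 for Sox11 with the same differences, and 0 of the 10 genes passed. Of the 10 differences in females, 5 were positive and 5 negative, with a median of -0.02 against -0.01 over all genes tested.

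Markers of other cells are given beside the female values. The 13 skeletal muscle markers summed to 1677 to 21900 CPM in saline and 7379 to 33800 CPM in VEGFA females, and the 11 macrophage markers to 249 to 423 and 190 to 301 CPM. The muscle markers were higher in 13 of 13 and the macrophage markers lower in 10 of 11 (12 and 4 at an unadjusted p under 0.05), and 0 of either list passed. Of all 18283 genes tested, 8887 were higher and 9393 lower in VEGFA females. Their part in the female values of the 10 genes was not tested. The count of 0 genes became 5 without Saline female 3 and 1 without Saline female 8, and 0 of the 10 genes passed in either case.

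A second view of the treatment came from batch 1, which holds neither VEGFA male 5 nor VEGFA male 6. With 4 VEGFA and 4 saline libraries and sex as a covariate, limma called 0 of all genes tested (0%), and 287 (1.57%) had an unadjusted p under 0.05, 0 of the 10 among them. The edgeR and DESeq2 tests also called 0 genes. Over all 18283 genes tested, 10165 differences were negative and 8118 positive. All 10 differences were negative and smaller than their SE, from -0.53 (SE 0.66) for Ecel1 to -0.03 (SE 0.228) for Csf1, with a median of -0.10 against -0.03 over all genes, and all had an adjusted p of 1. That of Ecel1 was -1.37 without VEGFA female 2 and -0.05 without VEGFA male 2, and -0.05 by edgeR and -0.02 by DESeq2. For Atf3 the difference was -0.10 with a 95% interval from -0.63 to 0.43, for Sprr1a -0.11 (-0.97 to 0.76) and for Sox11 -0.09 (-0.66 to 0.48). The difference between the batches itself was not tested, since the genes were chosen on it.

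**Figure D2:**
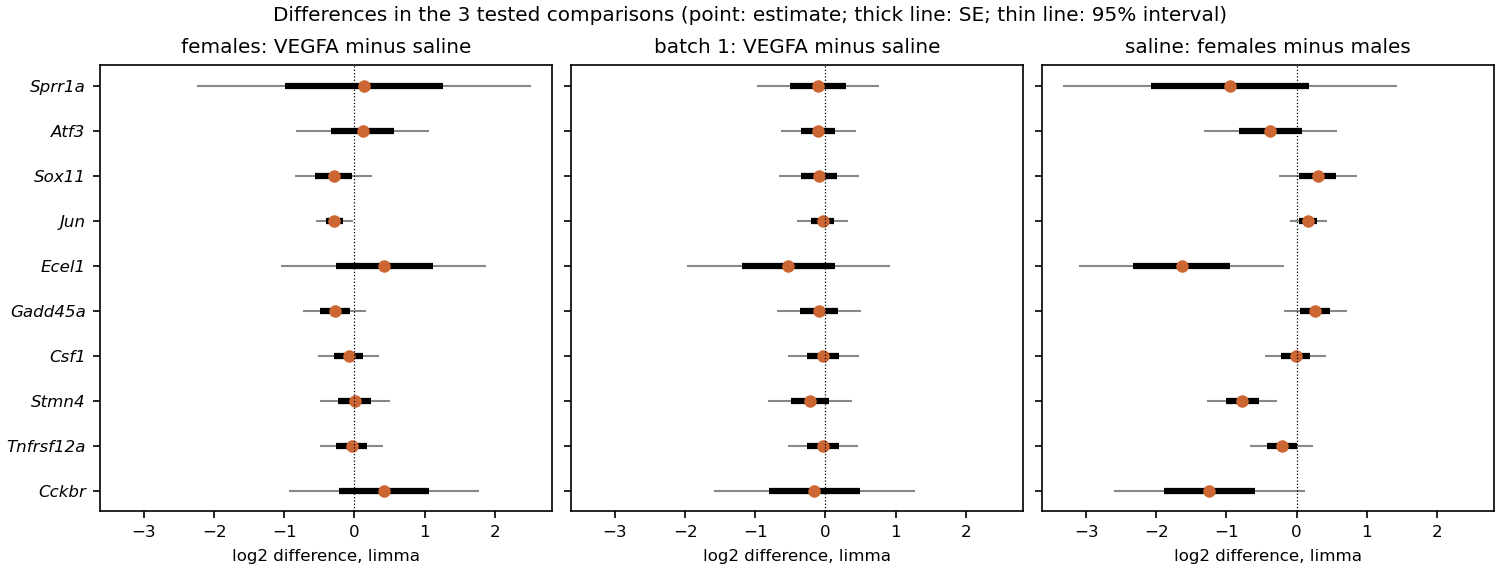
Differences on the log2(CPM + 0.5) scale for the 10 genes in the 3 comparisons that were tested, with points for the limma estimate, thick lines for its SE and thin lines for the 95% interval. Nearly all intervals cover 0; those of Jun in females and of Ecel1 and Stmn4 between the saline sexes do not, but none of the 10 genes passed after adjustment over all genes.

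Between the sexes, the saline groups were compared as the baseline. Of all genes 9 passed (0.0492%), 5 higher and 4 lower in females, and 0 of the 10 genes were among them. The 9 became 14 without Saline male 8, again with 0 of the 10. At an unadjusted p under 0.05 were 947 genes (5.18%), 2 of them among the 10. Stmn4 averaged 23.5 CPM (SD 5.69, n = 4) in saline females and 40.6 CPM (SD 9.00, n = 4) in saline males, a log2 difference of -0.77 (SE 0.236, limma adjusted p = 0.795). Ecel1 averaged 2.31 CPM (SD 1.11, n = 4) and 8.15 CPM (SD 2.75, n = 4), a log2 difference of -1.64 (SE 0.693, limma adjusted p = 0.903). The saline groups did not overlap for Ecel1, and they did for Stmn4 and for Cckbr, which differed by -1.24 (SE 0.644, limma adjusted p = 0.927). The share of all genes without overlap was not counted.

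Several marker lists lay to one side in the same contrast. Of all 18283 genes tested, 11303 were higher in saline females and 6980 lower, with a median log2 difference of 0.07. Of skeletal muscle markers 13 of 13 and of mitochondrially encoded genes 13 of 13 were lower in saline females, with medians of -1.22 and -0.44 and 0 passing. Of fibroblast markers 8 of 8 (Col3a1 passing, median 0.59) and of macrophage markers 10 of 11 (0 passing, median 0.50) were higher. The part of these lists in the values of Stmn4, Ecel1 and Cckbr was not tested. All 10 tested of the 12 markers of the spinal cord, which adjoins the roots of these ganglia, were also lower in saline females than in saline males, with a median log2 difference of -1.07, and 0 of them passed. The mean level of the list, as log2(CPM + 0.5), was 3.58, 3.46, 3.40 and 1.32 in the saline males and 2.59, 0.79, 2.87 and 1.91 in the saline females. Up to 3 of the 12 markers were at 0 in a saline male and up to 4 in a saline female. The summed level ran from 377 to 514 CPM in saline males and from 306 to 389 CPM in saline females. Slc17a7 alone was at 184 to 366 CPM in the libraries other than VEGFA male 5 and 6. The sums did not follow the list means. Saline female 4 had the lowest mean of the saline females, 0.79, and the highest sum, 389 CPM.

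Over the 14 libraries other than VEGFA male 5 and 6, the mean of the spinal cord list was set against each of the 10 genes, an analysis added after the data had been seen. Ecel1 had Pearson r = 0.783 and Spearman rho = 0.767, Stmn4 0.731 and 0.727, and Cckbr 0.724 and 0.688, each with a permutation p adjusted over 10 relations of 0.0161 for r. The adjusted permutation p for rho was 0.0214, 0.0214 and 0.0274. These 3 of the 10 genes were thus higher where spinal cord markers were higher. The permutations took the 14 libraries as independent and kept neither sex nor replicate number, both of which go with these levels, so the p-values are a guide only. Without Saline female 4 and VEGFA female 1, the libraries farthest from the median, r was 0.719, 0.608 and 0.590 and 0 of 10 relations passed (adjusted permutation p 0.117, 0.165 and 0.165). In batch 1 (n = 8) r was 0.858, 0.826 and 0.874. Of these Ecel1 and Cckbr passed together with Sox11 at -0.830, all with an exact permutation p of 0.0441 after adjustment. By rho in batch 1, Ecel1, Cckbr and Sox11 did not pass (adjusted exact permutation p 0.173, 0.173 and 0.154). In batch 2 (n = 6) r was 0.603, 0.560 and 0.497 and 0 of 10 passed.

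VEGFA male 5 and 6 are given beside these libraries as values only. Their spinal cord list means were 1.22 and 1.54, within the range of 0.79 to 3.71 of the other libraries, and their summed levels were 277 and 330 CPM, within 232 to 514 CPM. None of the 10 tested markers lay outside the other libraries in both, and up to 3 of the 12 were at 0. The median log2 difference of the tested markers from the other libraries was -1.38, against 0.02 over all genes. Most of the sums was Slc17a7, at 217.9 and 256.5 CPM (median of the others 253.3). Cldn11 was at 44.4 and 52.3 CPM (57.6), Aqp4 at 10.5 and 14.1 (11.6) and Slc32a1 at 1.04 and 0.57 (10.2). In males, VEGFA minus saline was negative for all 10, with a median of -1.52, and was not tested. In the pair Ecel1 was at 34.8 and 25.1 CPM, Cckbr at 10.4 and 6.64 CPM and Stmn4 at 32.7 and 36.5 CPM.

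**Figure D3:**
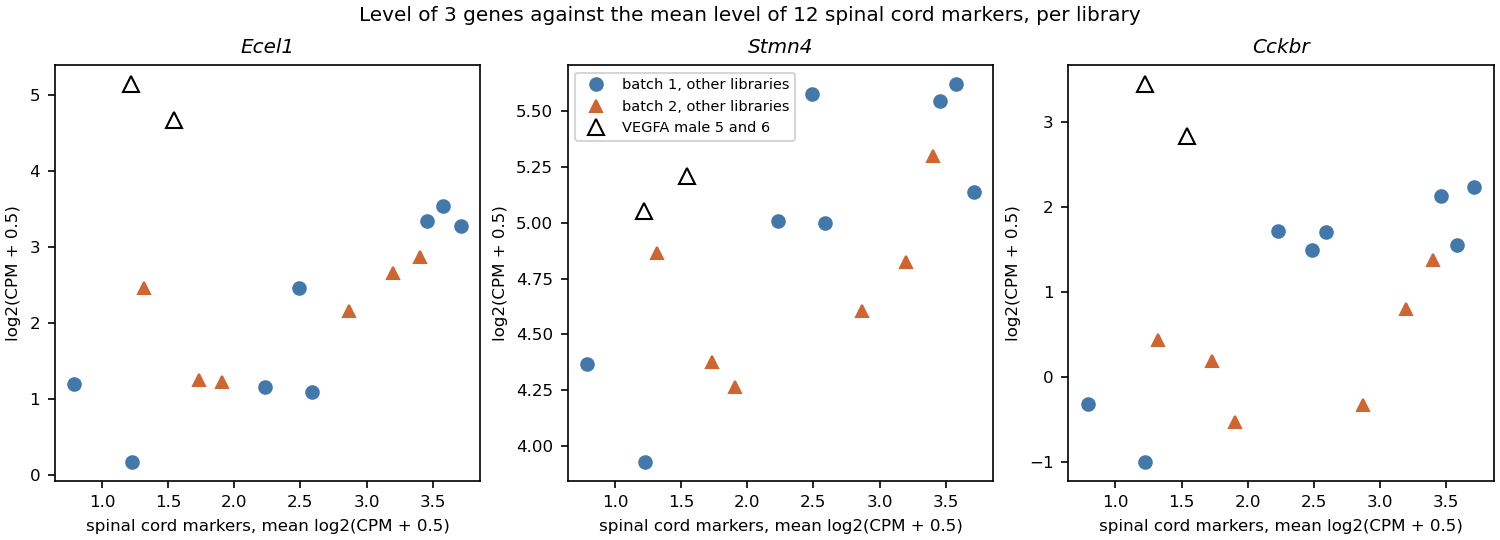
Level of Ecel1, Stmn4 and Cckbr against the mean level of 12 spinal cord markers, both as log2(CPM + 0.5), with 1 point per library; open triangles are VEGFA male 5 and 6. In the other 14 libraries the genes are higher where the markers are higher (r = 0.783, 0.731 and 0.724), and the open triangles lie at marker levels of 1.22 and 1.54.

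Atf3 was also set against each of the other 9 genes over the same 14 libraries, to see whether they vary together outside the pair. For Sprr1a, Saline male 7 and 8 stood apart among the 14, at 4.92 and 6.33 CPM against a median of 0.64 CPM. The permutations again kept neither sex nor replicate number. Sprr1a had the highest r, 0.722, with an adjusted permutation p of 0.0612 over 9 relations, and rho was 0.538 with an adjusted permutation p of 0.223. Without Saline male 8 and Saline female 7, but with Saline male 7, r was 0.525. Within batch 1 it was 0.361 (n = 8) and within batch 2 0.807 (n = 6). The others lay between r = -0.220 for Gadd45a and 0.392 for Ecel1, and 0 of the 9 relations passed. Of the transcription factors, Sox11 had r = -0.02 and Jun 0.04 with Atf3.

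In the pair, other genes of nerve regeneration were high as well. Of 26 tested in a list of 30, 12 lay above all other 14 libraries and 0 below, beside the background of 8.78% and 4.86% over all genes. Above as well were 7 of 20 genes that fall after axotomy and 4 of 12 markers of sensory neurons. The list was written with earlier results of these data known, and the pair was the reason for the choice of the 10 genes. These counts are therefore a description and carry no test. The list's median log2 difference from the median of the others was 0.61, against 1.11 for the 10 genes and 0.02 over all genes. Galanin (Gal), an inhibitory neuropeptide, was at 58.6 and 54.2 CPM against 9.58 to 46.1 CPM. Npy was at 14.8 and 14.4 CPM (others up to 9.69) and Gpr151, an orphan receptor, at 5.53 and 6.24 CPM (others up to 2.01). Flrt3, a membrane protein of neurite growth, was at 22.1 and 26.4 CPM (others up to 11.3) and Cacna2d1, the calcium channel subunit that binds gabapentin, at 161 and 155 CPM (others up to 109). Smad1, Stat3, Sdc1, Cd44, Itga7, Nts and Gfra1 complete the 12; Gap43, at 344 and 339 CPM, did not exceed the highest other library at 350 CPM. The genes past the rule of naming only the 4 most abundant of a list were chosen here after their values had been seen.

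**Figure D4:**
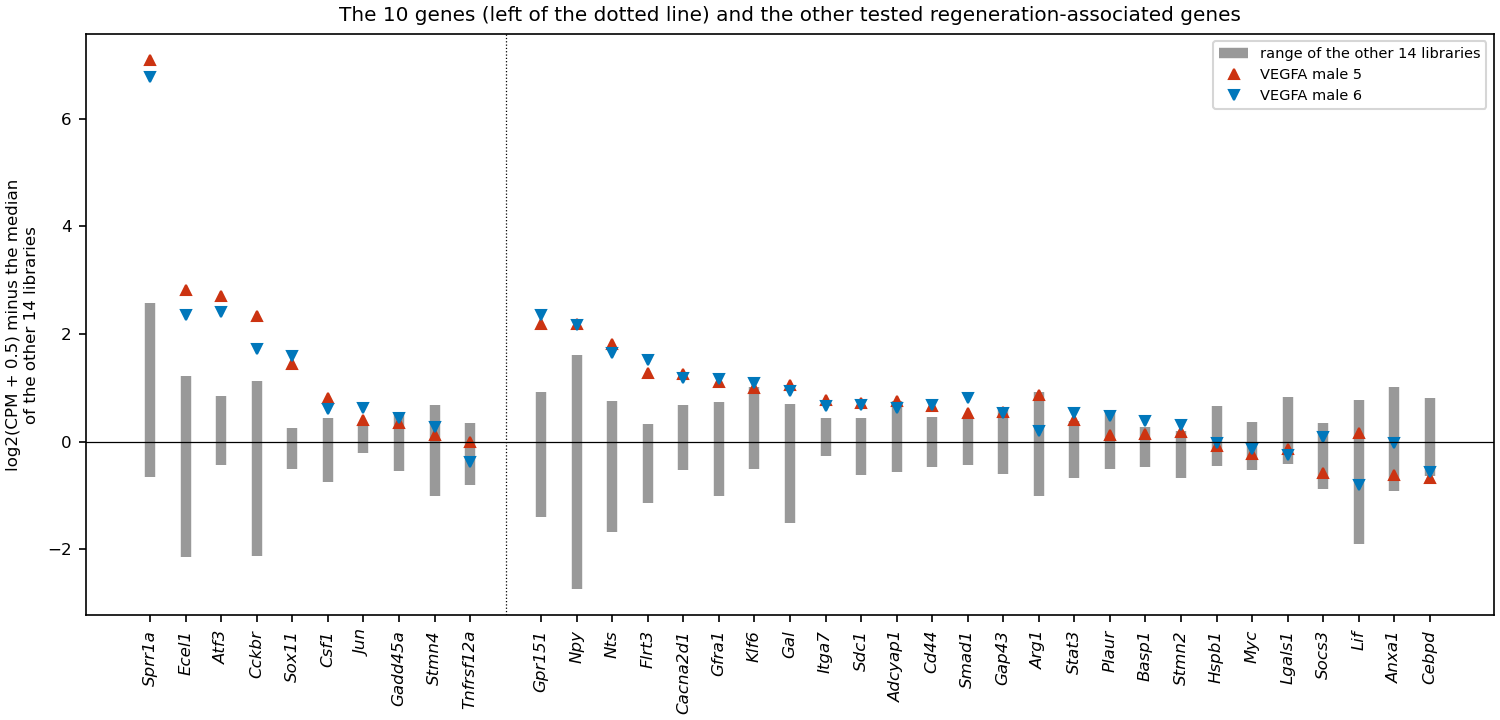
Level of the 10 genes and of the other tested regeneration genes in VEGFA male 5 and VEGFA male 6, as log2(CPM + 0.5) minus the median of the other 14 libraries, whose range is the grey bar. Triangles above the bar mark genes higher than all others, 7 of the 10 genes on the left and 12 of 26 on the right.

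Genes that fall in axotomised neurons were not low in the pair. Of 20 such genes 0 lay below the other 14 libraries and 7 lay above, with a median log2 difference of 0.42. Scn10a, a sodium channel of nociceptors named after its values had been seen, was at 769 and 845 CPM against 367 to 733 CPM. The neurofilament genes Nefm and Nefh were above the others too (Nefm 4542 and 5197 CPM, others up to 4095), and Nefl was not (2517 and 2808 CPM, others up to 2715). Of 12 markers of sensory neurons 4 lay above and 0 below, with a median of 0.16.

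Several lists of other cells and of ribosomal and mitochondrial genes moved in the opposite direction in the same 2 libraries. Over all genes tested, 4.86% lay below the other 14 libraries in both and 8.78% above. Of 20 genes for cytosolic ribosomal proteins, 15 lay below all other libraries, with a sum of 2652 to 2738 CPM against 3404 to 6454 CPM. Of 13 mitochondrially encoded genes 6 lay below, with a sum of 39400 to 44190 CPM against 42810 to 92340 CPM. Outside the pair, the ribosomal sums ran from 3812 to 6454 CPM in batch 1 and from 3404 to 4440 CPM in batch 2. The mitochondrial sums ran from 48710 to 92340 CPM in batch 1 and from 42810 to 59720 CPM in batch 2. VEGFA male 5, at 44190 CPM, lay inside that range of batch 2. The part of batch in these shifts was not tested. Of 8 adipocyte markers 3 lay below (sum 43.5 to 90.2 CPM against 106 to 685 CPM, with 0 markers at 0 in the pair). Of 11 macrophage markers the 3 complement genes C1qa, C1qb and C1qc did. All 11 macrophage markers summed to 173 to 181 against 190 to 423 CPM, with a median log2 difference of -0.285. Markers of satellite glia and Schwann cells gave 0 of 8 and 0 of 8 outside the others. Injured Schwann cells gave 0 of 6, and neutrophils 0 of 6. The part of these shifts in the levels of the 10 genes was not tested.

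**Figure D5:**
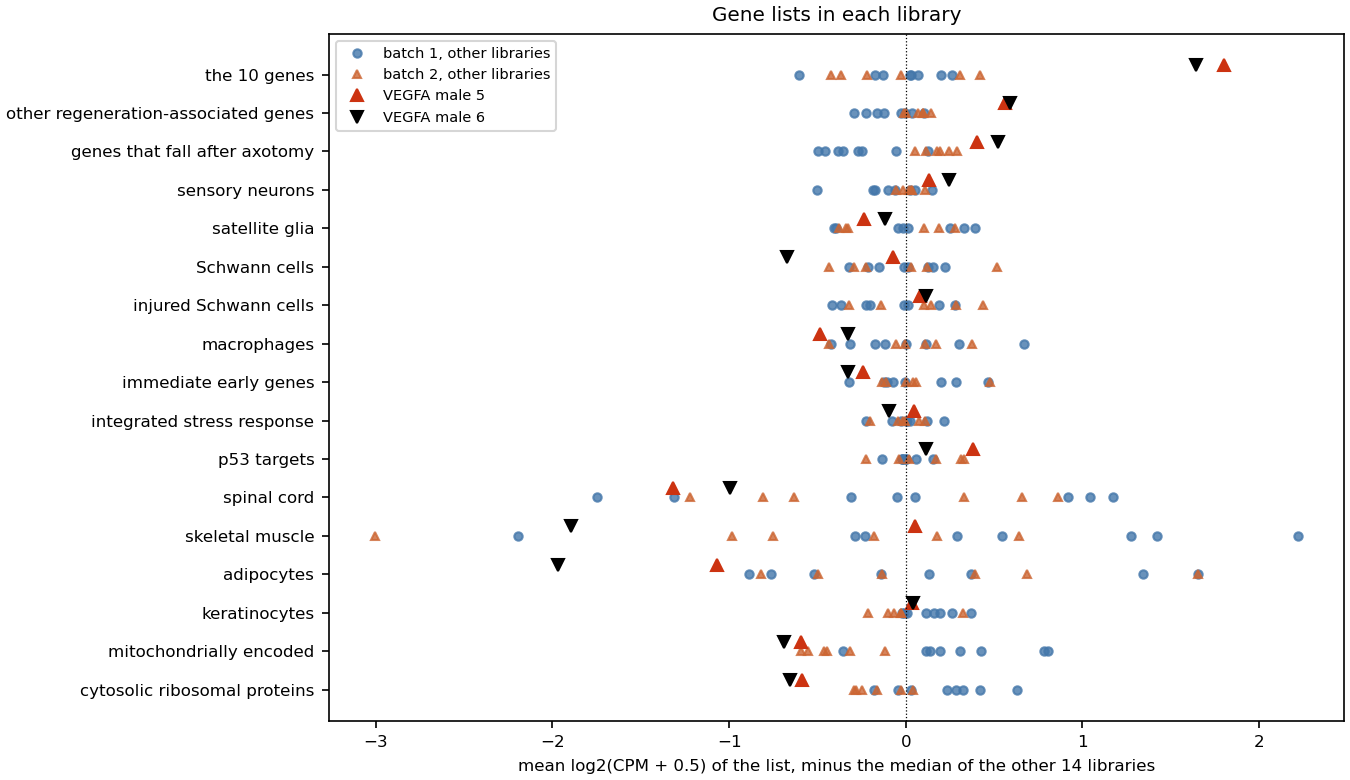
Mean log2(CPM + 0.5) of each gene list in every library, minus the median of the other 14 libraries, with circles and small triangles for the other libraries of batch 1 and batch 2 and large triangles for VEGFA male 5 and 6. The 10 genes stand far to the right in the pair, the other regeneration genes and the genes that fall after axotomy less far, and ribosomal, mitochondrial and adipocyte lists lie to the left.

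Genes were ranked by the correlation of their level over all 16 libraries with the mean of the 10 standardised levels. The ranking covered 14412 genes that averaged 1 CPM or more. The 10 genes, genes with shared symbols and genes with predicted or clone-style names were left out of it. The highest were Tifa (r = 0.905), Sema6a (0.896), Gpr151 (0.815), Pkib (0.790) and Serpinb1a (0.785). Mmp16 (0.783), Uty (0.760), Sez6l (0.749), Kdm5d (0.739) and Onecut2 (0.723) followed. The libraries share their pair of high values, so these r describe mostly VEGFA male 5 and 6. Tifa was at 20.1 and 20.4 CPM in the pair and at 10.5 to 13.7 CPM in the others, and Sema6a, which codes for a semaphorin, at 46.2 and 47.5 CPM and at 14.9 to 32.6 CPM. Uty and Kdm5d are Y-linked, with 0 CPM of Uty and at most 0.199 CPM of Kdm5d in females, so that their pattern also carries the sex of the libraries.

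The libraries held 25.16 to 32.8 M (mega) reads in batch 1 and 32.83 to 41.2 M in batch 2. The dissected tissue carried the markers of dorsal root ganglion neurons in every library, among them Avil at 383 to 889 CPM and Prph at 1339 to 3093 CPM. The labelled sex matched Xist, at no more than 0.369 CPM in males and at least 18.6 CPM in females. No 2 of the 120 pairs of libraries were copies of one another, with log2 correlations from 0.908 to 0.984. P-values measure the spread between these animals.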

How the data were processed

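The authors deposited counts per mega reads (CPM) for 55357 Ensembl genes in 16 libraries. Per the submitters' processing notes, Partek, Bowtie2, STAR, HTSeq and the build mm39 were used, without roles or versions. The values of a library were multiples of 1 read, and whole reads were recovered for 99.81 to 99.91% of values above 0 (tolerance 0.1 read). A mean of 0.5 CPM over the 16 libraries was required for testing, which 18283 genes met, the 10 among them, and 37074 did not. The limma fit (version 3.58.1, R 4.3.3; eBayes with trend) used log2(CPM + 0.5) with terms for the 4 groups and for batch, and Benjamini-Hochberg adjustment ran over all genes at a threshold of 0.05. Alternatives included other pseudocounts, filters and scaling, each library left out, single batches, and edgeR 4.0.16 and DESeq2 1.42.0 on the recovered reads. Only the limma fit of the female comparison was run on simulated data, which held no difference between batches.

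The 10 genes, the gene lists and the tests were chosen with earlier results of these data known. Named genes are the 10, up to 4 of each list by mean level, 5 short lists in full (stathmins, the Gadd45, small proline-rich and SoxC genes, and ligands and receptors linked to the 10), and the 10 genes most like them; other names are marked in the text. Ddit3 was left out because its symbol is shared. Permutation tests were two-sided, with 100000 resamples over 14 or 12 libraries and exact within batches. Saline animals of both sexes share the numbers 3, 4, 7 and 8, and same-numbered libraries deviated together (correlations 0.370, 0.266, 0.375 and 0.173), with each number in the same batch; with batch removed the correlations were 0.316 and 0.254. VEGFA and saline groups share no number. Promoters are from RefSeq on GRCm38.p6; positions in the text otherwise are of build mm39, as in the deposited table.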

Additional observations from a re-analysis of the deposited data

Results flagged for a closer look

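Of 40 checks for a single library far from the 3 others of its group (10 genes in 4 groups), 2 found one, where chance gives about 1 in 20. Ecel1 was at 3.965 CPM in Saline female 7 and between 1.632 and 1.83 CPM in the other saline females, a gap of 0.915 of the group's range. Cckbr was at 2.759 CPM in Saline female 3 and between 0.1941 and 0.3049 CPM in the other saline females, a gap of 0.957 of the range. The spinal cord list mean was 2.87 in Saline female 7 and 2.59 in Saline female 3, the 2 highest of the saline females, against 0.79 and 1.91; its part in these values was not tested.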

How the results depend on the processing

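In no alternative did any of the 10 genes pass in the 3 tested comparisons. The counts of genes called moved as follows. In females, where 0 were called, batch 1 alone gave 7, batch 2 alone 6, DESeq2 1 and leaving out 1 library 0 to 5. Between the saline sexes, where 9 were called, DESeq2 gave 20, leaving out 1 library 8 to 14 and the fit with the replicate number as a block 7; the block changed no other call. In males, where 0 were called, no filter gave 1, batch 2 alone 14 and DESeq2 1. The 3 relations with the spinal cord list became 0 without the 2 farthest libraries and 0 in batch 2. Signs turned for some differences, none of which had passed. In females, batch 1 alone gave -0.16 for Sprr1a, -0.015 for Atf3, 0.17 for Csf1, -0.15 for Stmn4 and -0.078 for Cckbr, and batch 2 alone 0.054 for Gadd45a. Sprr1a was -0.25 by edgeR and -0.18 by DESeq2. With 1 library left out the female values ran from -0.55 to 0.91 for Sprr1a, -0.13 to 0.32 for Atf3, -0.16 to 1.02 for Cckbr, -0.26 to 0.034 for Csf1, -0.24 to 0.89 for Ecel1, -0.16 to 0.28 for Stmn4 and -0.15 to 0.10 for Tnfrsf12a. In batch 1, Cckbr was 0.11 by edgeR and 0.12 by DESeq2. With 1 library of batch 1 left out, values ran from -0.20 to 0.00146 for Atf3, -0.82 to 0.47 for Cckbr, -0.16 to 0.14 for Csf1, -0.32 to 0.10 for Gadd45a, -0.14 to 0.057 for Jun, -0.22 to 0.065 for Sox11, -0.33 to 0.14 for Sprr1a, -0.48 to 0.0068 for Stmn4 and -0.15 to 0.091 for Tnfrsf12a. Between the saline sexes Csf1 ran from -0.10 to 0.073. With Atf3, r became 0.0874 for Sox11 and -0.165 for Jun without the 2 farthest libraries, and -0.198 for Jun and -0.107 for Csf1 in batch 1. With the spinal cord list, r became -0.165 for Csf1 without the 2 farthest, 0.371 for Atf3 in batch 1, and 0.0586 for Sprr1a, 0.513 for Sox11 and -0.212 for Csf1 in batch 2. The cause of these changes was not tested, apart from the fewer samples that single batches hold. Of the single values, 731 counted as unchanged, 57 turned sign, 11 moved, 7 lost their call and 1 gained it. For the male differences, which had no test, unchanged meant a shift smaller than the residual SD of the fit, whatever the sign. Moved meant a larger shift. With 1 library left out, male differences ran from -0.20 to 0.96 for Ecel1, -0.091 to 0.26 for Csf1 and -0.25 to 0.0057 for Tnfrsf12a. Low read numbers limit Sprr1a and Cckbr outside VEGFA male 5 and 6. No paired analysis of VEGFA with saline was possible because those groups share no replicate number.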
